A study of Mus musculus with 34 samples.

Results

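The NRF2 antioxidant genes described here are 10 of the 14107 genes of the deposited count table, found by matching the table's Ensembl identifiers to the mouse symbols Nfe2l2, Keap1, Nqo1, Hmox1, Gclc, Gclm, Gsr, Txnrd1, Srxn1 and G6pdx. All 10 were present. RNA-seq measured them in NaJa-G, NaJa-F and NaJa-D, colorectal cancer cell lines isolated from the peritoneal lavage of recipient mice that carried transplanted colon organoids, and each line is 1 isolate. All groups share the C57BL/6N strain and the genotype VillinCreERT2::BrafV600E/+::Trp53R172H::APCdel, in which an intestinal epithelial promoter drives an inducible Cre, and all organoids came from 1 donor line. Each line received 0.5 µM encorafenib, an inhibitor of mutant BRAF, or DMSO, and was harvested at day 1 or, with renewed drug, at day 5. This gave 34 libraries in 12 groups, 10 groups with 3 libraries and 2 groups with 2 (NaJa-G DMSO day 5, NaJa-F encorafenib day 5). The labels do not say whether the replicates were separate cultures, so the p-values measure the spread between these libraries, which may be technical.

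Nfe2l2 encodes NRF2, a transcription factor that binds antioxidant response elements together with small MAF proteins. In unstressed cells KEAP1 holds NRF2 in a complex with the CUL3 ubiquitin ligase, which leads to its degradation, and electrophiles or oxidants that modify KEAP1 let NRF2 accumulate. Its activity is therefore set largely at the protein level, which RNA-seq does not see. The other members are widely used transcript readouts of NRF2 and serve quinone reduction (Nqo1), heme breakdown (Hmox1), glutathione synthesis and recycling (Gclc, Gclm, Gsr), the thioredoxin and peroxiredoxin system (Txnrd1, Srxn1) and NADPH supply (G6pdx). Several of them also answer to other factors, Hmox1 to BACH1 for example.

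Libraries held between 46007050 and 80121299 counts, and levels are given below as CPM, counts scaled to library size with TMM factors. One label field of NaJa-D DMSO day 1 replicate 3 names another line than its title. Its correlation with the other libraries of its titled group was at least 0.9946, against at most 0.9202 with NaJa-G DMSO day 1, and it was kept under its title. NaJa-D encorafenib day 1 replicate 3 stood apart from replicates 1 and 2 in several of the genes, for instance with a Gclc level of 31.1 CPM against 47.1 and 48.3. Over all genes, variance between replicate pairs was 3.32 to 86.6 times counting noise, with 86.6 and 67.9 for this library. It was 69.1 for the 2 NaJa-G DMSO day 5 libraries and 46.5 for the 2 NaJa-F encorafenib day 5 libraries. For NaJa-G DMSO day 1 replicate 1 it was 48.3 and 46.7, against 3.67 between replicates 2 and 3. Every gene in the table was above 1 CPM, before TMM factors, in at least 2 libraries, so an absent gene may still have had a low level. Though Vil1 had NaJa-G group means of only 0.35 to 0.96 CPM, all 9 colorectal epithelial markers were in the table. Ptprc, Adgre1, Cd3e, Wt1, Pecam1 and Cdh5, which define leukocytes, mesothelium and endothelium, were not, although the leukocyte genes Cd68 and Csf1r and the endothelial gene Kdr were in it at low levels and the mesothelial antigen gene Msln was abundant, with group means from 529.96 to 3148 CPM. According to the paper, host cells were lost as the lines were passaged, judged by PCR for the wild-type Apc allele. As further evidence it gives the loss of the wild-type Trp53 product at higher passages. It also gives the raised frequency of the Trp53R172H allele in exome sequencing. Fewer cells of a kind and less RNA per cell cannot be told apart in bulk libraries.

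On the GRCm38 build (GENCODE M21) the members lie on several chromosomes, so they are not a cluster of neighbours. Nfe2l2 is at chr2:75675513-75704641 on the minus strand, Srxn1 at chr2:152105516-152111376 on the plus strand and Gclm at chr3:122245557-122270732 on the plus strand. Hmox1 (chr8:75093621-75100589, plus), Gsr (chr8:33652523-33698163, plus) and Nqo1 (chr8:107388225-107403206, minus) share a chromosome, as do Keap1 (chr9:21229730-21239361, minus) and Gclc (chr9:77754535-77794485, plus). Txnrd1 is at chr10:82833951-82897712 on the plus strand and G6pdx at chrX:74409483-74429194 on the minus strand. All are annotated as protein-coding.

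Because the members are joined by the element NRF2 binds, the 250 bases before the annotated starts were searched for its core, written TGACNNNGC or TGAGNNNGC, on both strands. RefSeq promoter windows (GRCm38.p6) were at hand for 7 members, in 9 windows because Txnrd1 has 3. Their starts are those of RefSeq, which need not be the gene bounds given above. For G6pdx and Txnrd1 the matches below lie inside those bounds. At least 1 match was found for 5 members (Nfe2l2, Gclm, Txnrd1, Srxn1 and G6pdx), in 5 of the 9 windows, while 23% of the 32841 mouse windows of the same length held one. Srxn1 held 2 matches. The matches are shown 5′ to 3′ on the gene's strand with the 9 bases of the core in capitals, which begin with GC where the core lies on the opposite strand.
Srxn1 (chr2:152105463-152105503, plus): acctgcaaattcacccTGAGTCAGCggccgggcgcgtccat
Srxn1 (chr2:152105350-152105390, plus): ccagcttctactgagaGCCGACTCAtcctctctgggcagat
Gclm (chr3:122245407-122245447, plus): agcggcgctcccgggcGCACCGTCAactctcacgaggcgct
Txnrd1 (chr10:82859098-82859138, plus): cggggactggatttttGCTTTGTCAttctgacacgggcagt
G6pdx (chrX:74428913-74428953, minus): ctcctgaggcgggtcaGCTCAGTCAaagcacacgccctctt
Nfe2l2 (chr2:75704879-75704913, minus): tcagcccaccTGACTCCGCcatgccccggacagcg
The window of Nqo1, the member that moved most, held neither form of the core and is given in full because its values lead the results.
Nqo1 (chr8:107403206-107403455, minus): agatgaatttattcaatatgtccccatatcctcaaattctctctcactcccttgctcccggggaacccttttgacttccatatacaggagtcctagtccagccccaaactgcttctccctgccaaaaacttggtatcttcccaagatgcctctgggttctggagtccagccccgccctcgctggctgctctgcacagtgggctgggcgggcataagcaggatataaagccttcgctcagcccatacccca
A match is a description of letters and not a bound site, and a window without one says only that these letters are not in it.

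Per kilobase of exon, Gsr, G6pdx and Txnrd1 were the most abundant members, with means over the 12 groups of 72.3, 57.2 and 45.5 CPM per kb. Nfe2l2 followed at 31.0 and Srxn1 at 19.7 CPM per kb. Gclc (15.6), Gclm (14.7), Hmox1 (13.9), Keap1 (12.2) and Nqo1 (9.11) were lowest. Between its lowest and highest group mean Nqo1 spanned 18.5-fold, whereas each of the other 9 genes spanned between 1.48-fold (Keap1) and 2.74-fold (Gclm), as the plot of levels in all libraries shows.

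**Figure D1:**
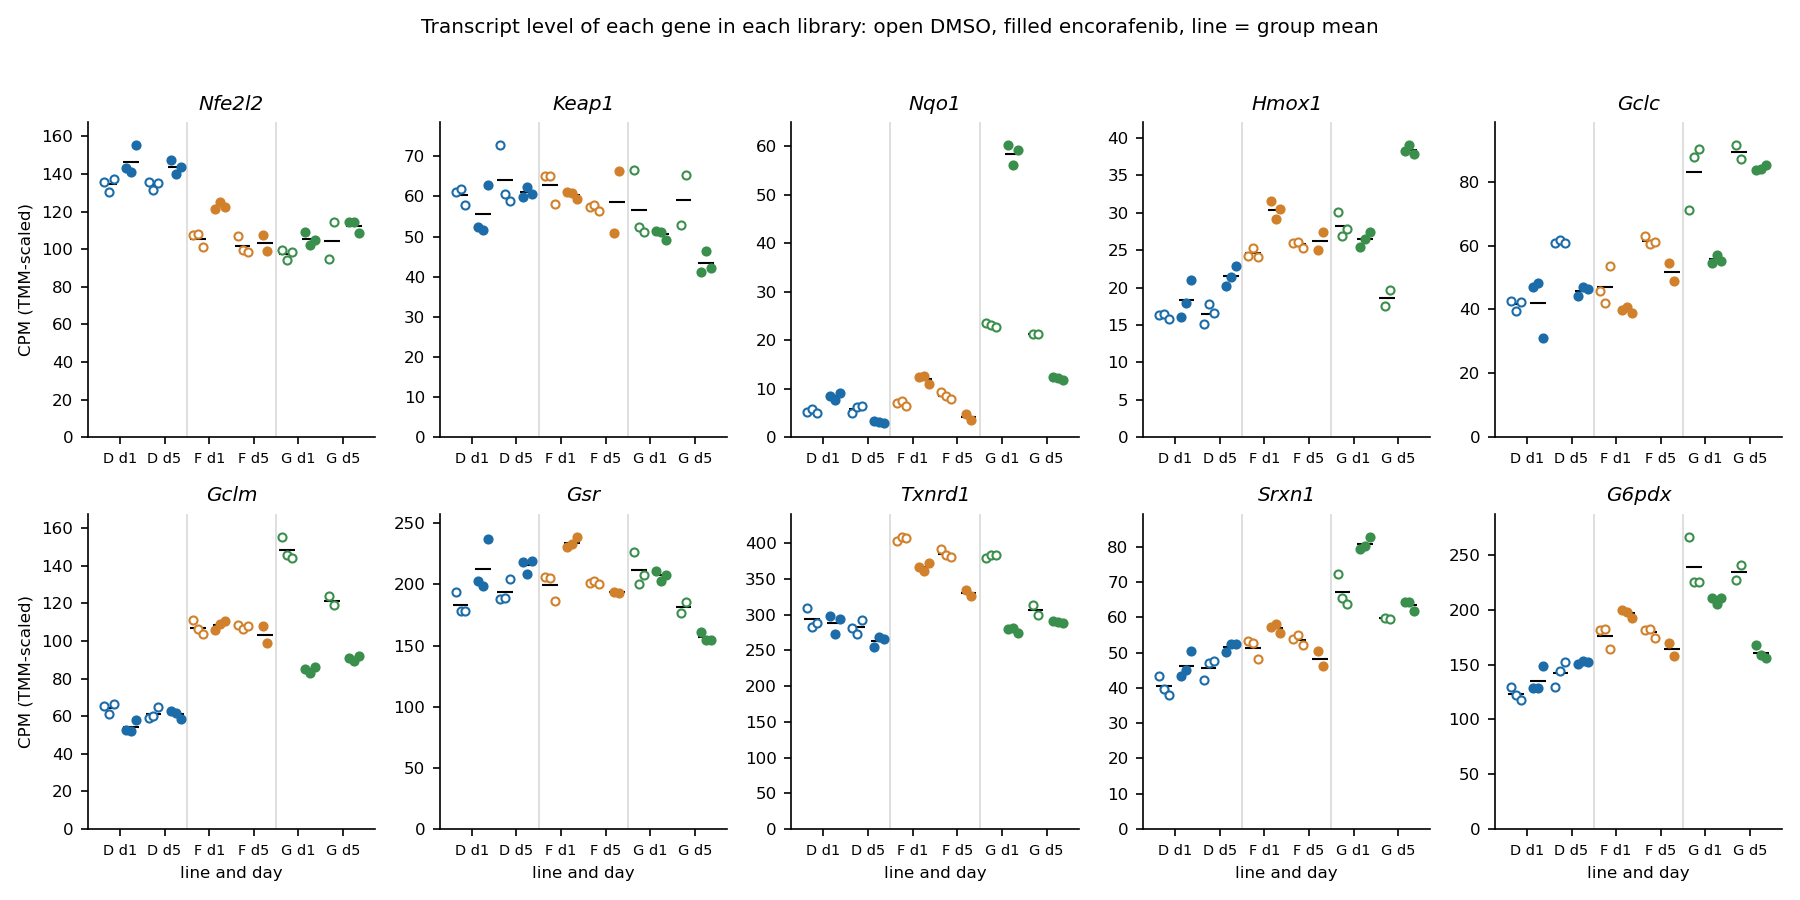
CPM (y axis, from 0) of each of the 10 genes in all 34 libraries, by line (D, F, G) and day (d1, d5) on the x axis. Open points are DMSO libraries, filled points encorafenib libraries and short lines group means. Nqo1 rose at day 1 and fell at day 5 in each line, and Hmox1 was highest in NaJa-G with encorafenib at day 5.

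The first comparison asked how the genes changed with encorafenib in each line at each day. Over the 6 comparisons, 24 of the 60 values passed an adjusted p below 0.01 in limma, 10 higher and 14 lower, and only 3 of the 24 were at least 1 on the log2 scale. In NaJa-D, 3 of 10 members were called at day 1, when 44.9% of all genes were, and 3 of 10 at day 5, when 33.0% were. The first count was 7 with library size in place of TMM scaling (Nfe2l2, Hmox1, Srxn1 and G6pdx were added), 1 with the compared groups fitted alone, and 2 without DMSO replicate 3 or without encorafenib replicate 3. The calls over all 14107 genes moved too, from 6335 to 3540 with the compared groups alone. They were 5330 without DMSO replicate 3 and 7115 without encorafenib replicate 3. With library size only, 63.6% of all called genes were higher, against 52.8% with TMM scaling. In NaJa-F the counts were 5 of 10 (29.5% of all genes) at day 1, which fell to 2 without NaJa-F DMSO day 1 replicate 3, and 2 of 10 (18.2%) at day 5. In NaJa-G they were 5 of 10 (64.0%) at day 1 and 6 of 10 (53.2%) at day 5. The members' share was below that of all genes in 3 comparisons and above it in 3. Their median log2 fold change ranged from -0.14 (NaJa-G day 5) to 0.16 (NaJa-F day 1), against -0.02 to 0.04 for all genes, and no member was called in 1 direction in all 6 comparisons. Day 1 and day 5 comparisons use separate DMSO libraries. The 3 of 4 mesothelial markers in the table, mostly Msln, had higher sums with treatment, 2214 to 3520 CPM against 1225 to 1514 in NaJa-D, 1002 to 1176 against 660.1 to 984.7 in NaJa-F and 1328 to 1744 against 496.9 to 723.8 in NaJa-G over both days, while the defining marker Wt1 was not in the table. The 4 of 5 fibroblast markers in the table also had higher sums with treatment, 85.1 to 99.7 CPM against 51.2 to 70.5 for NaJa-G at day 1 and 105.4 to 119.5 against 13.9 to 16.6 at day 5, where Dcn went from a mean of 0.24 to 12.6 CPM. In NaJa-D those sums were 2.69 to 7.54 against 1.24 to 1.85, and NaJa-F had 3.65 to 5.21 against 1.90 to 2.48. The paper names decorin, the product of Dcn, among the transcripts raised by encorafenib in all 3 lines, and describes NaJa-G as mesenchymal-like. The leukocyte genes Cd68 and Csf1r summed to 6.35 to 7.94 CPM with treatment against 3.73 to 5.44 (NaJa-G), 8.98 to 10.2 against 4.94 to 5.97 (NaJa-F) and, within days, 7.83 to 9.21 against 5.74 to 6.66 and 5.78 to 5.86 against 3.64 to 4.42 (NaJa-D). Csf1r, which encodes a macrophage growth factor receptor, had a higher mean with treatment in all 6 comparisons, for example 1.85 against 0.257 CPM for NaJa-D at day 1. Kdr lay between 0.16 and 1.36 CPM in all libraries. With treatment it was lower in NaJa-G on both days (0.64 to 0.89 against 1.29 to 1.36 CPM at day 1). In NaJa-D at day 5 it was higher (0.32 to 0.49 against 0.16 to 0.25 CPM). The epithelial markers moved both ways. Cdh17 had a lower mean with treatment in all 6 comparisons, for example 6.35 against 58.7 CPM for NaJa-D at day 1. Krt8 had a higher mean in all of them but NaJa-G at day 5, with 2026 against 1282 CPM for NaJa-D at day 1. The part of these markers in the results was not tested.

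**Figure D2:**
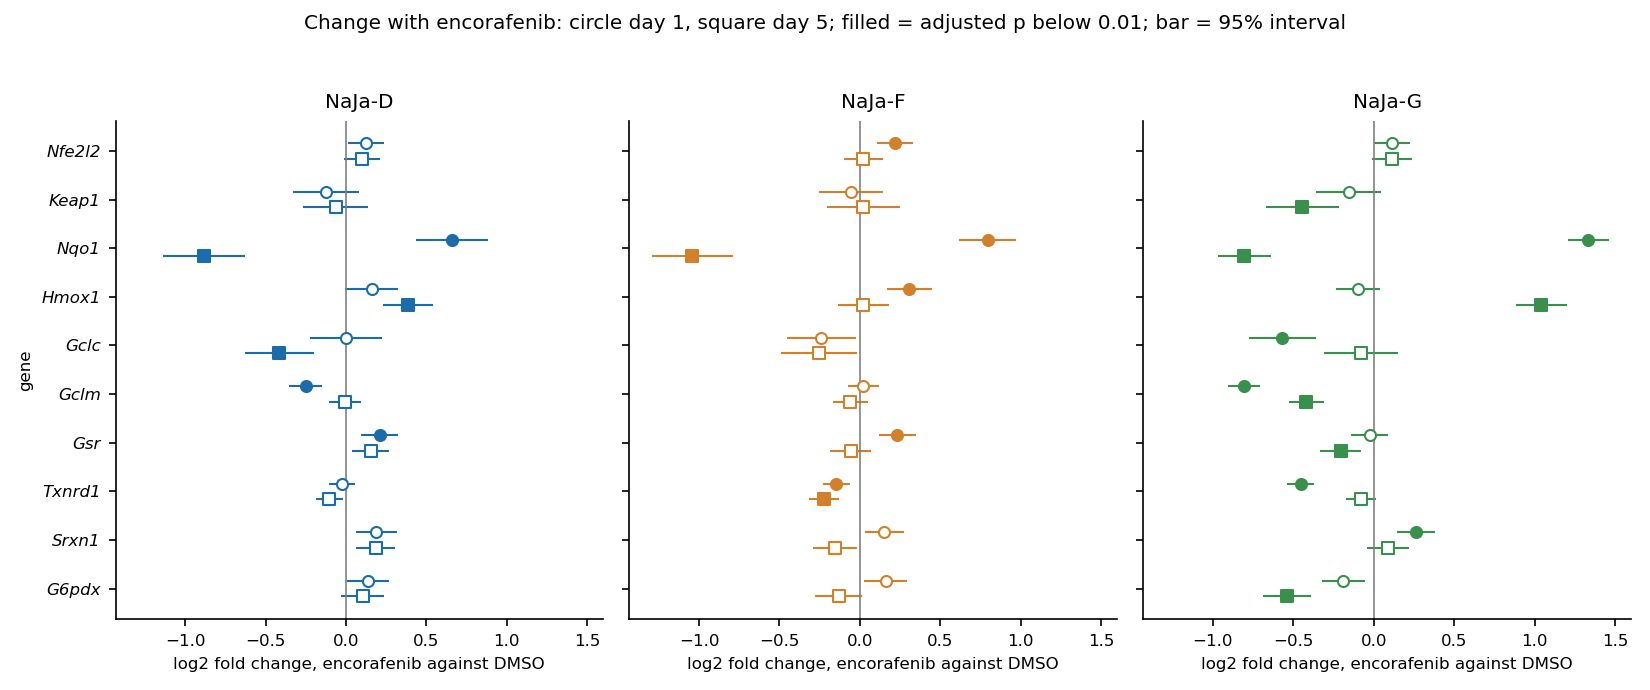
Log2 fold change (x axis) of each gene (y axis) with encorafenib against DMSO in each line, with 95% intervals. Circles are day 1, squares day 5, and filled symbols passed an adjusted p below 0.01. Nqo1 lay right of 0 at day 1 and left of 0 at day 5 in all 3 lines, and no other member did so with both values called in any line.

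Nqo1 encodes the NAD(P)H quinone dehydrogenase, a cytosolic enzyme that reduces quinones to hydroquinones. At day 1 the NaJa-D libraries had 5.19, 5.82 and 5.05 CPM in DMSO and 8.47, 7.74 and 9.23 with encorafenib. In NaJa-F the values were 6.98, 7.42 and 6.49 in DMSO and 12.5, 12.6 and 11.1 with encorafenib. In NaJa-G they were 23.6, 23.1 and 22.8 in DMSO and 60.2, 56.1 and 59.3 with encorafenib. In each line every treated library at day 1 was above every DMSO library of that day. NaJa-G showed the highest log2 fold change, 1.33 ± 0.06 (SE; 2.52-fold; adjusted p = 2.83e-17), before NaJa-F with 0.79 ± 0.09 (adjusted p = 2.29e-08) and NaJa-D with 0.66 ± 0.11 (adjusted p = 1.19e-05). Without NaJa-D DMSO day 1 replicate 3 the last value was 0.59 (adjusted p = 0.000429), and without NaJa-D encorafenib day 1 replicate 3 it was 0.57 (adjusted p = 0.000134).

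At day 5 the order was the opposite. The NaJa-D libraries had 4.96, 6.27 and 6.51 CPM of Nqo1 in DMSO and 3.43, 3.11 and 2.96 with encorafenib. In NaJa-F there were 9.25, 8.47 and 7.92 CPM in DMSO and 4.81 and 3.59 with encorafenib. The NaJa-G values were 21.3 and 21.2 in DMSO and 12.5, 12.2 and 11.7 with encorafenib. Every treated library lay below every DMSO library of its line. On the log2 scale Nqo1 fell by 1.04 (SE 0.12; adjusted p = 1.53e-07) in NaJa-F, by 0.88 (SE 0.12; adjusted p = 1.12e-06) in NaJa-D and by 0.81 (SE 0.08; adjusted p = 1.06e-09) in NaJa-G.

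The difference between the day 5 and day 1 effects on Nqo1 was -2.14 (95% interval -2.35 to -1.93) in NaJa-G, -1.83 (-2.15 to -1.52) in NaJa-F and -1.54 (-1.88 to -1.20) in NaJa-D, with adjusted p of at most 1.84e-07 in limma. In DMSO, day 5 and day 1 differed by -0.12 log2 units in NaJa-G, 0.30 in NaJa-F and 0.13 in NaJa-D, none of them called (adjusted p = 0.18, 0.0183 and 0.423), although with library size only the NaJa-F value was (0.37, adjusted p = 0.0025). The day 1 rise in NaJa-G exceeded that of NaJa-D by 0.67 (95% interval 0.42 to 0.93; adjusted p = 7.82e-05) and that of NaJa-F by 0.54 (0.32 to 0.76; adjusted p = 0.000146). NaJa-F and NaJa-D differed by 0.13 at day 1 (-0.15 to 0.42). At day 5 the fall was not called different between any pair of lines, with differences from -0.16 to 0.23.

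Among all genes, 1716 (12.2%) were called higher at day 1 in all 3 lines and 604 (4.28%) lower at day 5 in all 3 lines, and 5 (0.0354%) met both. This count was made after the Nqo1 values were seen. Besides Nqo1 these were Aldh1a7, an aldehyde dehydrogenase gene, Dmpk, a kinase gene, Mlph, which encodes a melanosome transport adaptor, and Notum, a secreted WNT inhibitor. No gene had the opposite order, lower at day 1 and higher at day 5, in all 3 lines.

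Hmox1 encodes heme oxygenase 1, which breaks heme into biliverdin, carbon monoxide and iron. At day 5 in NaJa-G its levels were 17.6 and 19.6 CPM in DMSO and 38.3, 39.0 and 37.8 with encorafenib, the highest of any library. The groups did not overlap, and Hmox1 rose by 1.04 ± 0.08 log2 units (2.06-fold; adjusted p = 2.51e-12). The DMSO libraries of NaJa-G had themselves fallen, from 30.1, 26.9 and 27.8 CPM at day 1 to the values above at day 5 (by 0.60 log2 units; adjusted p = 5.38e-07), yet the treated day 5 libraries were above all of the day 1 libraries as well. At day 1 the treated NaJa-G libraries had 25.4, 26.5 and 27.4 CPM and overlapped their controls (log2 fold change -0.10, 95% interval -0.24 to 0.04).

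In NaJa-D Hmox1 rose at day 5, from 15.1, 17.9 and 16.6 CPM to 20.2, 21.5 and 22.9 (log2 fold change 0.39 ± 0.08; adjusted p = 0.000128), and in NaJa-F at day 1, from 24.3, 25.3 and 24.1 CPM to 31.6, 29.2 and 30.5 (0.31 ± 0.07; adjusted p = 5e-04). Neither pair of groups overlapped. At NaJa-D day 1 (16.1, 17.9 and 21.1 CPM with encorafenib against 16.3, 16.5 and 15.8) and at NaJa-F day 5 (25.0 and 27.4 against 25.9, 26.1 and 25.3) the libraries overlapped and Hmox1 was not called. The day 5 effect in NaJa-G exceeded that of NaJa-D by 0.66 (95% interval 0.43 to 0.88; adjusted p = 2.56e-05) and that of NaJa-F by 1.02 (0.80 to 1.24; adjusted p = 1.9e-08). Hmox1 and Nqo1 thus moved in opposite directions at day 5 in NaJa-D and NaJa-G.

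The 2 genes of the glutamate-cysteine ligase, the rate-limiting enzyme of glutathione synthesis, fell or were not called. Gclm, its modifier subunit, had 155.1, 145.9 and 143.9 CPM in DMSO and 84.9, 83.2 and 86.4 with encorafenib in NaJa-G at day 1, and 124.0 and 118.9 against 90.9, 89.5 and 92.2 at day 5. The groups were far apart on both days. Gclm fell by 0.81 (SE 0.05; adjusted p = 1e-14) at day 1 and by 0.42 (SE 0.05; adjusted p = 1.16e-07) at day 5 in this line. In NaJa-D it was 65.6, 61.0 and 66.5 CPM in DMSO and 52.7, 51.9 and 57.9 with encorafenib at day 1 (log2 fold change -0.25 ± 0.05; adjusted p = 0.000105), a call lost with only the compared groups in the fit (-0.27; adjusted p = 0.0192). The day 5 groups overlapped. In NaJa-F the treated and control libraries overlapped on both days, between 99.1 and 110.9 CPM. The day 1 fall in NaJa-G exceeded the change in NaJa-D by 0.55 and that in NaJa-F by 0.83 log2 units (adjusted p = 2.33e-07 and 1e-10).

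Gclc, the catalytic subunit, fell in NaJa-G at day 1, from 71.1, 87.8 and 90.3 CPM to 54.6, 57.0 and 55.3 (log2 fold change -0.57 ± 0.10; adjusted p = 1.3e-05), and in NaJa-D at day 5, from 60.7, 61.6 and 60.8 CPM to 44.1, 47.0 and 46.3 (-0.41 ± 0.10; adjusted p = 0.00176). In both cases no treated library reached a control library. The second call was lost without NaJa-D encorafenib day 5 replicate 1 (-0.39; adjusted p = 0.0101) and with library size only (-0.40; adjusted p = 0.0116). In DMSO, Gclc rose between day 1 and day 5 in NaJa-D by 0.55 ± 0.11 (adjusted p = 0.000154), from 42.7, 39.6 and 42.4 CPM to the day 5 values above, which is the only member called over time there. Gclc also rose over time in NaJa-F (0.39 ± 0.10; adjusted p = 0.00544), where leaving out any 1 of 5 libraries ended the call, with values from 0.31 to 0.38. At NaJa-D day 1 the effect on Gclc could not be resolved because the treated libraries were 47.1, 48.3 and 31.1 CPM (95% interval of the log2 fold change -0.22 to 0.22).

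Gsr, glutathione reductase, returns oxidised glutathione to its reduced form with NADPH. Its changes were small, with called day 1 log2 fold changes of 0.21 ± 0.06 in NaJa-D (adjusted p = 0.00221) and 0.23 ± 0.06 in NaJa-F (adjusted p = 0.00157), and one of -0.21 ± 0.06 for NaJa-G at day 5 (adjusted p = 0.00554). Each call depended on single libraries. Without NaJa-D encorafenib day 1 replicate 3 the first value was 0.10 (adjusted p = 0.105), without NaJa-F DMSO day 1 replicate 3 the second was 0.19 (adjusted p = 0.0182), and without NaJa-G DMSO day 5 replicate 3 the third was -0.18 (adjusted p = 0.0613). The first was also lost without NaJa-D DMSO day 1 replicate 2 or 3 (0.19 and 0.16), and the third without NaJa-G DMSO day 5 replicate 1 or encorafenib replicate 2 or 3 (-0.24 to -0.20). With only the compared groups in the fit the first and the third were lost (adjusted p = 0.123 and 0.0146), and the third also with DESeq2 and RLE size factors.

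Txnrd1 encodes the cytosolic thioredoxin reductase. In NaJa-G at day 1 it had 378.4, 383.1 and 383.9 CPM in DMSO and 280.0, 281.8 and 274.3 with encorafenib, so the groups were separate by more than their whole spread, and it fell by 0.45 (SE 0.04; adjusted p = 6.06e-11). It also fell in NaJa-F at day 5, from 392.3, 383.4 and 380.2 CPM to 334.5 and 326.0 (-0.22 ± 0.05; adjusted p = 0.000417). The smaller fall in NaJa-F at day 1 (-0.15 ± 0.04; adjusted p = 0.00518) was lost when any 1 of 5 of its 6 libraries was left out, with values from -0.15 to -0.14, and with only the compared groups in the fit (adjusted p = 0.0102). At day 5 in NaJa-G the value was -0.08 (95% interval -0.17 to 0.01). The controls of that comparison had lower Txnrd1 than at day 1, at 313.4 and 299.0 CPM (-0.32 ± 0.05 over time; adjusted p = 2.18e-06). The difference between the day 5 and day 1 effects in NaJa-G was 0.37 (95% interval 0.25 to 0.50; adjusted p = 1.35e-05) and shares these controls.

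Srxn1 encodes sulfiredoxin, which repairs overoxidised peroxiredoxins. It rose in NaJa-G at day 1, from 72.2, 65.6 and 63.9 CPM to 79.3, 80.2 and 82.7, with no overlap (log2 fold change 0.26 ± 0.06; adjusted p = 0.00017). The call was lost with only the compared groups in the fit (0.21; adjusted p = 0.0138). In the other 5 comparisons its values ran from -0.15 to 0.19 and none was called, although the NaJa-D day 1 value was with edgeR (0.19; adjusted p = 0.00762) and limma-trend. With library size only in limma, both NaJa-D values were called, at day 1 (0.27; adjusted p = 0.000157) and at day 5 (0.20; adjusted p = 0.00321).

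G6pdx encodes the X-linked glucose-6-phosphate dehydrogenase, the entry to the pentose phosphate pathway and a source of NADPH. It fell in NaJa-G at day 5, from 227.6 and 240.9 CPM to 167.8, 158.8 and 156.4, and the groups did not overlap (log2 fold change -0.54 ± 0.07; adjusted p = 3.1e-07). The fall was larger than the day 5 effect in NaJa-D by 0.64 and in NaJa-F by 0.41 log2 units (adjusted p = 7.06e-06 and 0.00261). The latter call was lost without NaJa-F encorafenib day 5 replicate 1 (-0.36) or NaJa-G DMSO day 5 replicate 3 (-0.37). G6pdx was not called in the other 5 comparisons, where its values ran from -0.19 to 0.16. With edgeR the NaJa-G day 1 value was called (-0.19; adjusted p = 0.00941). With library size only in limma it was called too (-0.25; adjusted p = 0.000185), as was the NaJa-D day 1 value (0.21; adjusted p = 0.00169).

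Each of the regulators was called in 1 of the 6 encorafenib comparisons. Nfe2l2 passed the test in NaJa-F at day 1, where it went from 107.7, 108.3 and 101.0 CPM to 121.5, 124.9 and 122.4 (log2 fold change 0.22 ± 0.05; adjusted p = 0.00179). The call was lost without NaJa-F DMSO day 1 replicate 3 (0.19; adjusted p = 0.0154). Its values in the other 5 comparisons were between 0.02 and 0.12, with upper 95% bounds of at most 0.24. Keap1 passed it in NaJa-G at day 5, where 52.8 and 65.3 CPM in DMSO stood against 41.3, 46.5 and 42.2 with encorafenib (-0.44 ± 0.11; adjusted p = 0.000939). Without NaJa-G DMSO day 5 replicate 3 the value was -0.29 (adjusted p = 0.0651).

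The second comparison asked how the untreated lines differed, on the mean of both days in DMSO. Against NaJa-D, 7 of 10 members were called in NaJa-F (61.6% of all genes) and 8 of 10 in NaJa-G (67.4%), and NaJa-G and NaJa-F differed in 6 of 10 (54.4%). NaJa-F had 6 members above NaJa-D, where 32.6% of all genes were called higher, and NaJa-G had 7, where 33.3% were. The median log2 difference of the 10 genes from NaJa-D was 0.36 in NaJa-F and 0.53 in NaJa-G, where the medians of all genes were 0.02 and 0.01. Each line enters 2 of the 3 comparisons, so these share libraries. With library size alone in place of TMM the median of all genes moved up by 0.12 in both comparisons with NaJa-D.

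**Figure D3:**
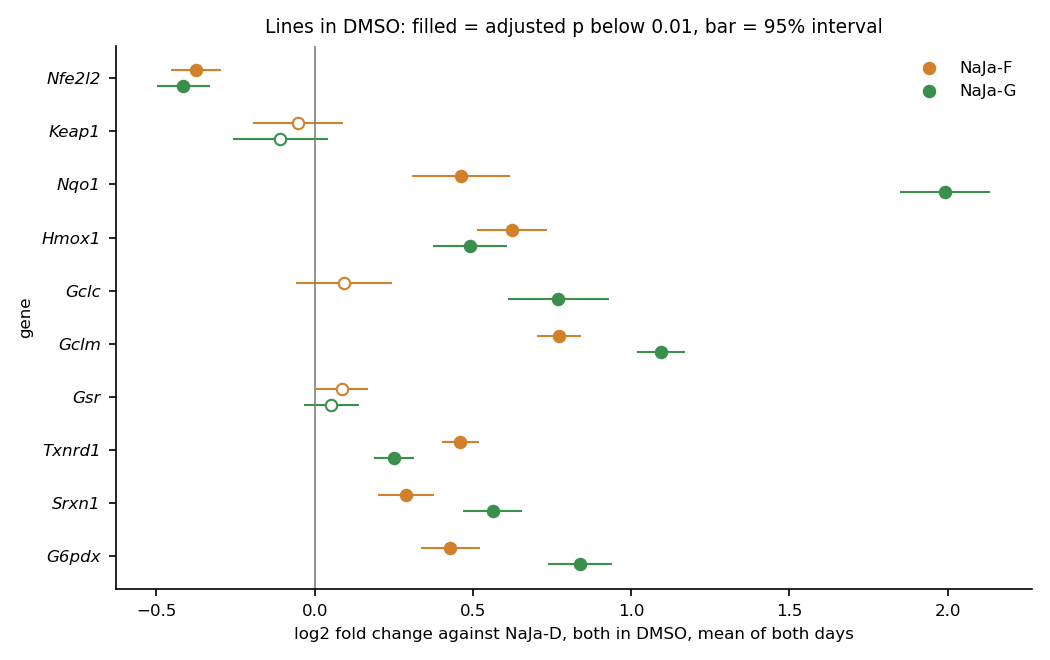
Log2 difference (x axis) of NaJa-F and NaJa-G from NaJa-D in DMSO, over both days, for each gene (y axis) with 95% intervals; filled points passed an adjusted p below 0.01. Nqo1 and Gclm lay farthest right in NaJa-G, and Nfe2l2 was lower than in NaJa-D in both other lines.

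Without inhibitor, Nqo1 in NaJa-G was 3.98-fold above NaJa-D (log2 difference 1.99 ± 0.07; adjusted p = 1.99e-20) and 2.88-fold above NaJa-F (1.53 ± 0.06; adjusted p = 4.17e-19). Gclm rose in the order NaJa-D, NaJa-F, NaJa-G, with log2 differences from NaJa-D of 0.77 ± 0.03 (NaJa-F) and 1.09 ± 0.04 (NaJa-G) (adjusted p = 1.3e-17 and 6.52e-21). G6pdx followed the same order (0.43 and 0.84 against NaJa-D), as did Srxn1 (0.29 and 0.56), and each of the 3 genes also differed between NaJa-G and NaJa-F. The difference in Srxn1 between NaJa-G and NaJa-F (0.27) was 0.16 and not called at day 5 alone. Gclc was higher in NaJa-G by 0.77 ± 0.08 against NaJa-D and by 0.68 ± 0.08 against NaJa-F, and NaJa-F and NaJa-D differed by 0.09 (95% interval -0.06 to 0.25).

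Against NaJa-D, Hmox1 was higher in NaJa-F (0.62 ± 0.05) and NaJa-G (0.49 ± 0.06). For NaJa-G the difference was 0.80 at day 1 alone and 0.18, not called, at day 5 alone. Txnrd1 was highest in NaJa-F, by 0.46 ± 0.03 over NaJa-D. NaJa-G was 0.25 ± 0.03 above NaJa-D, a difference that was 0.38 at day 1 alone and 0.12, not called, at day 5 alone. NaJa-G was also below NaJa-F, by 0.21, and the value was -0.09 and not called at day 1 alone. Hmox1 in NaJa-G was lower than in NaJa-F at day 5 alone (-0.47; adjusted p = 1.32e-05). Gsr did not pass the test in any pair on the mean of both days (differences from -0.03 to 0.09), but NaJa-G was above NaJa-D at day 1 alone (0.20; adjusted p = 0.00208), and with library size only NaJa-F (0.21) and NaJa-G (0.17) were both called above NaJa-D. Keap1 did not pass it in any pair (-0.11 to -0.05).

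Nfe2l2 differed the other way. Its DMSO libraries spanned 130.5 to 137.3 CPM in NaJa-D, 98.3 to 108.3 in NaJa-F and 94.4 to 114.5 in NaJa-G. The NaJa-D libraries were all above those of the other lines. Nfe2l2 was lower by 0.37 ± 0.04 in NaJa-F and by 0.41 ± 0.04 in NaJa-G (adjusted p = 9.34e-10 and 3e-10), and the latter pair differed by 0.04 (95% interval -0.12 to 0.04).

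The lines also differed in markers of cell identity. The paper describes NaJa-D as epithelial-like, NaJa-G as mesenchymal-like and NaJa-F as intermediate. The summed level of the 9 epithelial markers in DMSO was 4138 to 5330 CPM in NaJa-D, 3644 to 4662 in NaJa-F and 2026 to 3314 in NaJa-G. In DMSO day 1 means Epcam, Cdh1 and Vil1 fell in this order of lines, and Krt20 was highest in NaJa-D. Cdx2 (22.7, 51.7 and 8.68 CPM), Cdh17 (58.7, 108.2 and 55.7), Krt18 (1141, 1498 and 1313) and Krt8 were highest in NaJa-F. Lgr5 (1.24, 1.62 and 7.06) was highest in NaJa-G. The 4 of 5 fibroblast markers in the table (Col1a1, Col1a2, Dcn and Pdgfrb; Lum was not) summed to 1.24 to 1.85, 1.90 to 2.48 and 13.9 to 70.5 CPM. Dcn, with DMSO day 1 means of 0.14, 0.18 and 0.16 CPM, did not follow the fibroblast sum. The part of these markers in the differences of the 10 genes was not tested.

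Over culture time in DMSO, NaJa-G had 4 of 10 members called (34.1% of all genes), NaJa-F 1 (16.7%) and NaJa-D 1 (29.0%). The 4 genes Hmox1 (-0.60), Txnrd1 (-0.32), Gclm (-0.29) and Gsr (-0.22) were lower at day 5 in NaJa-G. With only the compared groups in the fit, where the genes called fell from 4804 to 1182, Hmox1 alone of these was called, and Txnrd1, Gclm and Gsr had adjusted p of 0.0238, 0.0305 and 0.0896. The Gsr call (adjusted p = 0.00516) was lost without DMSO day 1 replicate 1 (-0.17) and without either day 5 library (-0.19 and -0.26).

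The effects of encorafenib in different lines were set against each other directly in 6 comparisons, and the effects at both days in 3. At day 1, 5 of 10 members responded differently in NaJa-G and NaJa-D (36.4% of all genes), 6 in NaJa-G and NaJa-F (33.5%) and 1 in NaJa-F and NaJa-D (8.79%). At day 5 the counts were 4 (21.9%), 3 (24.2%) and 1 (8.85%). Day 5 and day 1 effects differed for 5 members in NaJa-G (31.7%), 1 in NaJa-F (5.88%) and 1 in NaJa-D (7.29%), Nqo1 among them each time. The shares of 8.79% and 7.29% depended on single NaJa-D libraries. Without encorafenib day 1 replicate 3 the calls over all genes went from 1240 to 3937 and from 1029 to 3104. Without DMSO day 1 replicate 3 they went to 758 and 587.

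To place the 10 genes, 81 further genes of NRF2 control, glutathione, thioredoxin, NADPH, heme and iron handling and detoxification were examined, of which 75 were in the table. Gsta2, Gsta3, Gstm3, Ggt1, Ugt1a6a and Ugt1a7c were not in it. Glutathione S-transferase and aldo-keto reductase genes have near-identical relatives, so their counts are uncertain where reads could belong to more than 1. With encorafenib, 34 of the 75 were called in NaJa-D at day 1 (21 higher, 13 lower) and 28 at day 5 (22 higher, 6 lower). NaJa-F had 32 called (24 higher, 8 lower) and then 18 (5 higher, 13 lower), and NaJa-G 57 (42 higher, 15 lower) and then 49 (27 higher, 22 lower). Those counts are 45.3, 37.3, 42.7, 24, 76 and 65.3% of the 75, to be read beside the shares of all genes above. The median log2 fold change over the 75 was between -0.09 (NaJa-F day 5) and 0.25 (NaJa-G day 1).

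**Figure D4:**
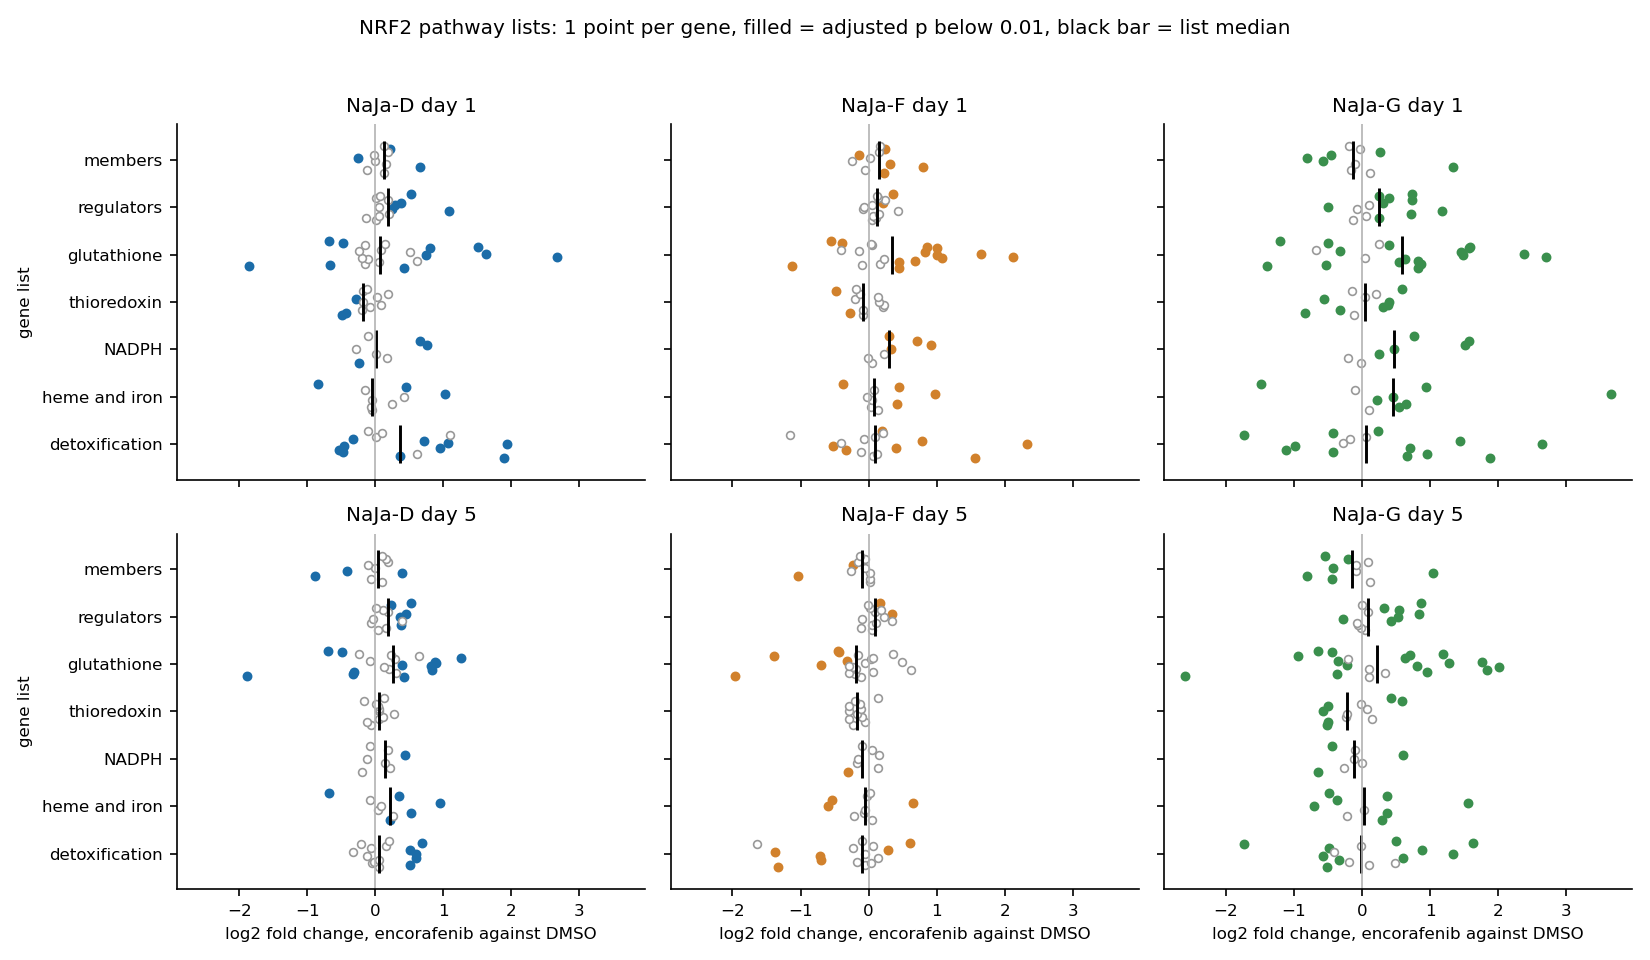
Log2 fold change with encorafenib (x axis) of the 10 members and of the 75 further pathway genes by list (y axis) in each line and day. Filled points passed an adjusted p below 0.01 and black bars are list medians. Points spread to both sides of 0 in most lists, with glutathione genes reaching from -2.60 to 2.70.

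Only 6 of the 75 were called in 1 direction in all 6 comparisons. Trim16, which encodes an E3 ligase that binds NRF2 and KEAP1, Slc40a1, the iron exporter ferroportin, and Cat, catalase, were higher throughout. Slc7a11, the cystine importer that feeds glutathione synthesis, and the export pumps Abcc1 and Abcc4 were lower throughout. Among all genes 5.08% were higher and 3.07% lower in all 6.

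Slc7a11, itself a well-known NRF2 target, had the lowest log2 fold change among the called genes of the 75 in 5 of the 6 comparisons and the third lowest in NaJa-G at day 1. The mean NaJa-D level went from 228.3 to 63.1 CPM at day 1 and from 229.8 to 62.0 at day 5. NaJa-F went from 181.5 to 83.1 and from 340.8 to 87.5, and NaJa-G from 491.9 to 187.2 and from 652.4 to 107.0. The log2 fold changes were -1.86 and -1.88, -1.12 and -1.97, and -1.39 and -2.60, each with a standard error of at most 0.11 and an adjusted p of at most 5.31e-11. Tfrc, the transferrin receptor for iron uptake, fell in NaJa-D (-0.84 and -0.68) and NaJa-G at day 1 (-1.49). Abcc4 fell by 0.69 and 0.70 in NaJa-D and by 0.55 in NaJa-F at day 1. Sod3, an extracellular superoxide dismutase, fell in NaJa-G (-1.74 and -1.73). Mgst2 was lower at day 5 in NaJa-F (-1.40) and NaJa-G (-0.94), Aox1 in NaJa-F at day 5 (-1.37, SE 0.33) and Akr1c13 in NaJa-F at day 1 (-0.52). Over the 6 comparisons Tfrc and Akr1c13 were each called lower in 5, so their falls were not confined to the lines and days named. Mgst2 was called higher in 3 and lower in 2, and Aox1 in 1 each way.

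At day 1 Gsta4, a glutathione transferase for lipid aldehydes, rose by 2.70 (NaJa-G), 2.67 (NaJa-D) and 2.12 (NaJa-F) log2 units, and Ephx1, microsomal epoxide hydrolase, by 2.65, 1.93 and 2.32 in the same order, each with an adjusted p of at most 7.33e-13. Aldh3a1 rose by 1.89 in NaJa-D, Gstm2 by 1.66 in NaJa-F, and Slc40a1 by 3.65 in NaJa-G, from a mean of 3.85 to 48.4 CPM. At day 5 the highest were Mgst1 (1.26), Slc40a1 (0.95) and Gstm2 (0.89) in NaJa-D, Slc40a1 (0.65), Osgin1 (0.60) and Mafk (0.35) in NaJa-F, and Gsta1 (2.02), Gpx3 (1.84) and Gstm4 (1.77) in NaJa-G. Gstm2 was under 3 CPM in every NaJa-D and NaJa-F group mean. Of these genes, Aldh3a1 was called higher in 3 and lower in 2 of the 6 comparisons, and Osgin1 higher in 3 and lower in 1. Gsta4, Ephx1, Gstm2 and Mgst1 were each called higher in 5 of the 6, and Gpx3, Gstm4 and Mafk in 4.

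Without inhibitor, NaJa-F differed from NaJa-D in 51 of the 75 (33 higher in NaJa-F) and NaJa-G in 59 (44 higher in NaJa-G), and NaJa-G differed from NaJa-F in 53 (35 higher in NaJa-G). These are 68, 78.7 and 70.7% of the 75, beside 61.6, 67.4 and 54.4% of all genes. The largest differences of NaJa-G from NaJa-D were Sod3 (5.07), Gstm2 (3.98) and Gstm1 (3.55) above and Gpx2, the intestinal glutathione peroxidase (-3.45), Txnip (-2.26) and Slc40a1 (-1.77) below. Gstm2 (2.65), Sod3 (2.43) and Gstm1 (1.78) were also the highest, and Gpx2 (-3.10), Osgin1 (-1.89) and Txnip (-1.45) the lowest, against NaJa-F. For NaJa-F against NaJa-D they were Gsta1 (2.81), Sod3 (2.64) and Aldh3a1 (1.89) above and Gstp2 (-1.50), Tfrc (-0.94) and Gstm4 (-0.89) below. Gpx2 thus ran against Nqo1 and Gclm across the lines. Standard errors were wider for Sod3 (0.22 to 0.42) and Gsta1 (0.26) than for Gstm1 (0.05 and 0.07).

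As a description over the 12 group means, which share lines and controls, the genes whose mean log2 CPM was most like Nqo1 were Lgals3 (Pearson r 0.979), Uqcc3 (0.954) and Aldh3a1 (0.951). For Gclm they were Serp2, Bcas2 and Cbfb (0.981 to 0.975), for Srxn1 Dctn6, Arpc2 and the ferritin light chain gene Ftl1 (0.98 to 0.975), and for G6pdx Ywhaz, C230014O12Rik and Faim (0.967 to 0.943). Nfe2l2 was nearest to Sil1, Hrh1 and Por (0.963 to 0.958), Keap1 to Mrpl44, Sf3b5 and Gm44349 (0.921 to 0.9) and Txnrd1 to Gpatch4, Fam98b and Sox12 (0.958 to 0.944). Hmox1 was nearest to Zfp825, Tpd52l1 and Rida (0.945 to 0.932), Gclc to Crnde, 4930503L19Rik and Irx3 (0.949 to 0.944) and Gsr to Gsto2, Smarcb1 and Idh3a (0.888 to 0.817). No member was among the 3 nearest genes of another.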

How the data were processed

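The authors sequenced 34 libraries of total RNA, and the deposited table holds raw counts per gene. Per the labels, reads were trimmed with Trimmomatic 0.39 and aligned with STAR 2.5.2b to GRCm38 (mm10). The counter, its annotation and its use of strand are not given in the sources used here, so reads of overlapping genes cannot be told apart. The smallest summed count of a gene in the table was 360. Of 14107 identifiers 14064 matched GENCODE M21, from which symbols, positions and exon lengths were taken.

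All 12 groups entered 1 fit with 1 mean per group, using voom weights and eBayes in limma 3.58.1 under R 4.3.3, with TMM factors from edgeR 4.0.16. Tests were two-sided, with Benjamini-Hochberg adjustment over all genes of each of 21 comparisons, and a value was called at adjusted p below 0.01, the threshold of the study's methods. Intervals cover 95%. CPM per kb divides CPM by the summed exon length. Scripts were tested on simulated data.

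The 10 genes, the further pathway lists, the markers and the tests were chosen with earlier results of these data known. Named were all 10 genes, the 3 highest and 3 lowest called pathway genes in each encorafenib and each line comparison, the pathway genes called in 1 direction in all 6 encorafenib comparisons, and the 3 nearest genes of each member. Alternatives were edgeR, DESeq2 1.42.0, limma-trend, other scaling, filters and thresholds, a replicate block, and leaving out each library.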

Additional observations from a re-analysis of the deposited data

Results flagged for a closer look

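Each of the 27 differences below is a difference between encorafenib effects (log2 units) in 2 lines at the same day, or at 2 days in the same line, that passed an adjusted p below 0.01 in limma among 90 values of this kind. A negative value is a lower effect in the line or day named first. Differences between lines share the libraries of the line they have in common, and differences between days share the line.

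For Nqo1 the effect at day 1 in NaJa-G exceeded that in NaJa-D by 0.67 and that in NaJa-F by 0.54, and the day 5 effect differed from the day 1 effect by -2.14 in NaJa-G, -1.83 in NaJa-F and -1.54 in NaJa-D. For Hmox1 the effect in NaJa-G differed from that in NaJa-F by -0.41 at day 1, from that in NaJa-D by 0.66 and from that in NaJa-F by 1.02 at day 5, and the day 5 effect in NaJa-G was above the day 1 effect by 1.14. The Hmox1 values at day 5 rest on 2 control libraries in NaJa-G.

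For Gclm the effect in NaJa-F was above that in NaJa-D by 0.27 at day 1, a call lost without any 1 of 8 libraries. The Gclm effect in NaJa-G differed from that in NaJa-D by -0.55 at day 1 and -0.41 at day 5 and from that in NaJa-F by -0.83 and -0.36, and within NaJa-G the day 5 effect was above the day 1 effect by 0.39. For Gclc the effect in NaJa-G differed from that in NaJa-D by -0.57 at day 1, a call lost without NaJa-D encorafenib day 1 replicate 1 (adjusted p = 0.0132) or replicate 2 (adjusted p = 0.0134). For Gsr the effect in NaJa-G differed from that in NaJa-F by -0.26 at day 1, a call lost without any 1 of 9 libraries, and from that in NaJa-D by -0.36 at day 5, a call lost without NaJa-G DMSO day 5 replicate 3 (-0.33; adjusted p = 0.0125).

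For Txnrd1 the effect in NaJa-G at day 1 differed from that in NaJa-D by -0.43 and that in NaJa-F by -0.31, and within NaJa-G the day 5 effect was above the day 1 effect by 0.37. For Srxn1 the effect in NaJa-F differed from that in NaJa-D by -0.34 at day 5, a call lost without any 1 of 10 libraries. For G6pdx the effect in NaJa-G differed from that in NaJa-D by -0.32 at day 1 and -0.64 at day 5, from that in NaJa-F by -0.35 and -0.41, and at day 5 from that at day 1 by -0.35. The first of these calls was lost without any 1 of 5 libraries, for example without NaJa-D encorafenib day 1 replicate 3 (-0.21; adjusted p = 0.0405) or NaJa-D DMSO day 1 replicate 3 (-0.24; adjusted p = 0.061), and with RLE size factors. The difference from NaJa-F was lost at day 1 without NaJa-G DMSO day 1 replicate 1 (-0.27) or NaJa-F DMSO day 1 replicate 3 (-0.30) and at day 5 without NaJa-F encorafenib replicate 1 (-0.36) or NaJa-G DMSO replicate 3 (-0.37). The difference between days was lost without any 1 of 7 libraries (-0.35 to -0.31) and with RLE size factors (adjusted p = 0.0114). With only the compared groups in the fit, the day 1 differences of Gclm between NaJa-F and NaJa-D and of Gclc and G6pdx between NaJa-G and NaJa-D and the day 5 difference of Srxn1 were lost (adjusted p from 0.0126 to 0.027). The Gsr difference at day 1 was lost with DESeq2, RLE size factors and the filter at 2 log2 CPM, and that of Srxn1 with edgeR, DESeq2, RLE size factors and the replicate block, while Gclm lost its call with library size only.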

How the results depend on the processing

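Of 78 called member values, 59 kept their direction and their side of the threshold under edgeR, DESeq2, limma-trend, RLE size factors, library size only, filterByExpr (which kept all 14107 genes), a filter at 2 log2 CPM (10276 genes), only the compared groups in the fit, the replicate block and, for the lines in DMSO, each day alone. Leaving out each library in turn kept 60 of them, and 52 kept both. Of 132 values not called, 103 stayed so throughout. The Gclc difference between day 5 and day 1 effects in NaJa-G did not. It was called with edgeR, DESeq2, RLE size factors and only the compared groups in the fit (0.48 to 0.50). Nqo1 and Hmox1 kept every encorafenib call. A sign change of a value called in neither fit was not counted as a reversal. The 1 reversal was Nfe2l2 over time in DMSO in NaJa-D, which became 0.18 (adjusted p = 0.00423) with library size only. That scaling moved the median of all genes by 0.18 in the same comparison, by 0.12 in each comparison of the lines with NaJa-D, and by -0.13 in the day 1 response of NaJa-G minus NaJa-D. It raised the share of higher genes among all called from 52.8% to 63.6% in NaJa-D at day 1, from 52.9% to 66.5% and from 49.4% to 59.9% for NaJa-F and NaJa-G against NaJa-D, and from 50.6% to 62.4%, 58.1% to 78.6% and 47.4% to 81.7% over time in NaJa-G, NaJa-F and NaJa-D. Shares fell from 51% to 34.7%, 55.5% to 40.2% and 64.3% to 51.4% for the responses NaJa-F minus NaJa-D at day 1 and NaJa-G minus NaJa-D at day 1 and day 5. The causes of these changes were not tested.

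The number of members called changed as follows. With adjusted p below 0.05 it was 6 in NaJa-D at day 5, 3 and 2 over time in NaJa-D and NaJa-F, 2 and 5 for the day 5 responses NaJa-F minus NaJa-D and NaJa-G minus NaJa-F, and 2 and 3 for day 5 minus day 1 in NaJa-D and NaJa-F. With log2 fold changes required to reach 1 in size it was 0 in NaJa-D on both days and NaJa-F at day 1, 1 in NaJa-F at day 5 and in NaJa-G on both days, 0 and 2 for NaJa-F and NaJa-G against NaJa-D, 1 for NaJa-G against NaJa-F, 0 over time in each line, 1 for the day 5 response NaJa-G minus NaJa-F, 0 for the other response differences between lines, and 2 for day 5 minus day 1 in NaJa-G. With library size only it was 7 in NaJa-D at day 1, 5 and 2 over time in NaJa-D and NaJa-F, 0 and 2 for the day 1 and day 5 responses NaJa-F minus NaJa-D, and 2 for day 5 minus day 1 in NaJa-F. With the filter at 2 log2 CPM it was 2 over time in NaJa-D and 2 for day 5 minus day 1 there. With only the compared groups it was 1 in NaJa-D at day 1, 1 over time in NaJa-G, 0 and 3 for the day 1 responses NaJa-F minus NaJa-D and NaJa-G minus NaJa-D, 0 for the day 5 response NaJa-F minus NaJa-D, and 3 for day 5 minus day 1 in NaJa-F. With edgeR, DESeq2 and RLE the day 5 response NaJa-F minus NaJa-D gave 0. Over all genes the number called moved with only the compared groups from 6335 to 3540 in NaJa-D at day 1, from 4804 to 1182 over time in NaJa-G, from 1240 to 415 for the day 1 response NaJa-F minus NaJa-D (2143 with DESeq2) and from 1029 to 261 for day 5 minus day 1 in NaJa-D.

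For the 75 further genes the called count moved to 15 from 44 over time in NaJa-G with only the compared groups, to 28 from 18 in NaJa-F at day 5 at adjusted p below 0.05, and to between 2 (NaJa-D day 5) and 18 (NaJa-G day 1) of the encorafenib comparisons and 10, 20 and 14 of the line comparisons at a log2 fold change of at least 1.

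Leaving out each library in turn gave 2 to 5 called members in NaJa-F at day 1 (2 without NaJa-F DMSO day 1 replicate 3), 1 to 3 and 0 to 1 over time in NaJa-D and NaJa-F, 0 to 2 and 0 to 1 for the day 1 and day 5 responses NaJa-F minus NaJa-D, and 1 to 3 for day 5 minus day 1 in NaJa-D (3 without NaJa-D encorafenib day 1 replicate 3). Without NaJa-D encorafenib day 1 replicate 3 the calls over all genes moved as well. They went from 1029 to 3104 for day 5 minus day 1 in NaJa-D. For the day 1 response NaJa-F minus NaJa-D they went from 1240 to 3937. In the other 15 comparisons the count of members stayed within 1.5 times its value. Where this left 1 library in a group, the spread was pooled over all groups and that library assumed to vary like the others, a choice made after seeing the data.

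Replicate numbers are shared across groups, but samples of the same number did not deviate together (correlations from -0.436 to 0.487 over 16 pairs, 4 of them above 0.1), so they were taken not to pair. With the replicate block the day 5 response NaJa-F minus NaJa-D gave 0 called members instead of 1, since Srxn1 lost its call, and no other member value changed side.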
